A study of Mus musculus with 168 samples.

Results

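Chaperones and chaperonins are described here as 83 genes among the 42405 gene symbols of the expression tables. They were chosen by name, as the HSP70, HSP90, HSP110, HSP60, HSP10 and small heat shock protein families, the J proteins, the CCT subunits and Tcp1, without pseudogenes. From textbook knowledge 54 were placed in the cytosol or nucleus, 14 in the endoplasmic reticulum and 10 in mitochondria, and 5 have no such place. Values were available for 150 single cells of old male C57BL/6 mice, profiled by Smart-seq2, which sequences full-length cDNA from individual cells. The subventricular zone (SVZ), the stem cell layer along the lateral ventricle, gave 133 cells labelled as neural stem cells, at a labelled age of 23 months (a protocol text says 22). Astrocytes at 25 months gave 13 cells of the striatum and 4 of the somatosensory cortex.

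SVZ cells had been sorted for GLAST and Prominin-1 and against CD45 and PSA-NCAM, and astrocytes for GLAST and against CD45 and O4. No transgene or treatment is named in the labels. Tissue of 4 old mice was pooled for the SVZ and of 3 to 4 mice for astrocytes, cells were picked by hand, and no cell is tied to an animal. Each group is therefore 1 sample, so that differences between groups carry no test, and SD stands for the variation among cells. For shares of cells, exact 95% intervals (Clopper-Pearson) are given, which cover counting error only. Values are TPM, transcripts per 1000000 corrected for transcript length, so levels can be set side by side between genes, but the read depth is unknown. SVZ cells came in a series named ogp (68 cells) and one named ogp2 (65 cells), and what sets these apart is not given in the labels.

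Chaperones bind other proteins while they fold. HSP70 proteins hold short unfolded stretches and are driven by J proteins, HSP90 finishes the folding of kinases and receptors, and TRiC, a double ring of CCT subunits, encloses actin, tubulin and other newly made proteins. Separate sets work in the endoplasmic reticulum on secreted and membrane proteins and in mitochondria on imported ones. Quiescent neural stem cells make little protein, and protein synthesis increases as they become active.

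SVZ cells were divided by the share of their TPM in 77 ribosomal protein genes. There were 15 ribosome-rich cells at 8% or more (12 of ogp and 3 of ogp2), 12 intermediate cells (6 of each series), and the remaining low-ribosome cells under 4% (50 of ogp and 56 of ogp2). These classes come from the values and are not groups of the study. Within 1 percentage point of the limits lay 8 cells at 4% and 5 cells at 8%. The nearest cells were at 3.67% and 4.12% around the lower limit and at 7.25% and 8.01% around the upper one. Of the ribosome-rich cells 11 had at least 5 of 18 mitosis genes at 1 TPM and are called mitotic.

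The classes differed in more than ribosomal transcripts. Genes at 1 TPM or more numbered 6518 in the median ribosome-rich cell, 4496.5 in the intermediate, 3636 in the striatum, 3387.5 in the cortex and 3248 in the low-ribosome cell. Summed over 8 astrocyte and quiescent stem cell markers, the median was 1120 TPM in ribosome-rich cells (range 332 to 6308), 9585 in intermediate, 27619.8 in striatum, 27623 in cortex and 31525 in low-ribosome cells (range 6141 to 61295). Each of these markers reached 10 TPM on average in striatum, cortex and low-ribosome cells, and 7 of 8 did in ribosome-rich cells. Summed over 7 markers of activated and transit amplifying cells, the median was 2409 TPM in ribosome-rich cells (range 558 to 3671, 7 of 7 at 10 TPM) and 56.5 TPM in low-ribosome cells (range 0 to 651, 2 of 7). Neuroblast markers had medians of 318 TPM in ribosome-rich cells (3 of 6 at 10 TPM) and 0 TPM in low-ribosome cells (0 of 6). Ependyma markers had medians of 0 TPM in ribosome-rich cells (0 of 4 at 10 TPM, highest 14.6) and 143 TPM in low-ribosome cells (1 of 4, highest 2255). Oligodendrocyte lineage markers had medians of 124 TPM in ribosome-rich cells (3 of 8 at 10 TPM, highest 1058) and 166 TPM in low-ribosome cells (5 of 8, highest 6037). Neuron markers reached 82.7 TPM in ribosome-rich cells and 2821 TPM in low-ribosome cells, with 2 of 5 at 10 TPM in each class. All 6 microglia markers were listed at 0 in ribosome-rich cells, and their sum reached 391 TPM in low-ribosome cells, with 1 of 6 at 10 TPM. Immediate early genes summed to a median of 2547 TPM in ribosome-rich, 1985 in intermediate and 34.3 in low-ribosome cells. The part of these measures in the chaperone differences was not tested. In 5 ogp columns, 1 ribosome-rich and 4 low-ribosome cells, the listed genes summed to only 66189 to 309864 TPM, and all columns were rescaled to a common total.

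Chaperone transcripts were more abundant in ribosome-rich cells, through the cytosolic and mitochondrial sets and not through that of the endoplasmic reticulum. The 83 genes held 13957 TPM per ribosome-rich cell (SD 2142, range 9933 to 17131), 10157 TPM per intermediate cell (SD 3131) and 5967 TPM per low-ribosome cell (SD 1633, range 2648 to 9806). The lowest ribosome-rich cell thus lay above the highest low-ribosome cell. Striatum astrocytes held 5207 TPM (SD 1679) and cortex astrocytes 7152 TPM (SD 2658), with ranges that include the low-ribosome mean.

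Of the 83 members, 10 were listed at 0 in every cell (Cct8l1, Dnajb13, Dnajb7, Dnajb8, Dnajc22, Dnajc5b, Dnajc5g, Hspa1b, Hspb7 and Hspb9), 13 stayed above 0 but under 10 TPM on average in each group, and 60 reached 10 TPM in 1 or more groups. Between ribosome-rich and low-ribosome cells, 59 members had 10 TPM in either class, of which 24 were at least 2-fold higher and 6 at least 2-fold lower in ribosome-rich cells. Among the 9349 genes at that level 28.1% were at least 2-fold higher and 25.4% at least 2-fold lower. The median log2 ratio of mean TPM + 1 was 0.61 over the members and 0.16 over all genes. Under median-ratio scaling 21 members were higher and 9 lower, beside an all-gene median of -0.03. On means of log values 45 were higher and 1 lower, beside an all-gene median of 1.57. In ogp alone 26 of 60 were higher and 10 lower, against 29.5% and 28.7% of all genes. In ogp2 alone 22 of 56 were higher and 10 lower, against 32.2% and 32.1% of all genes.

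**Figure D1:**
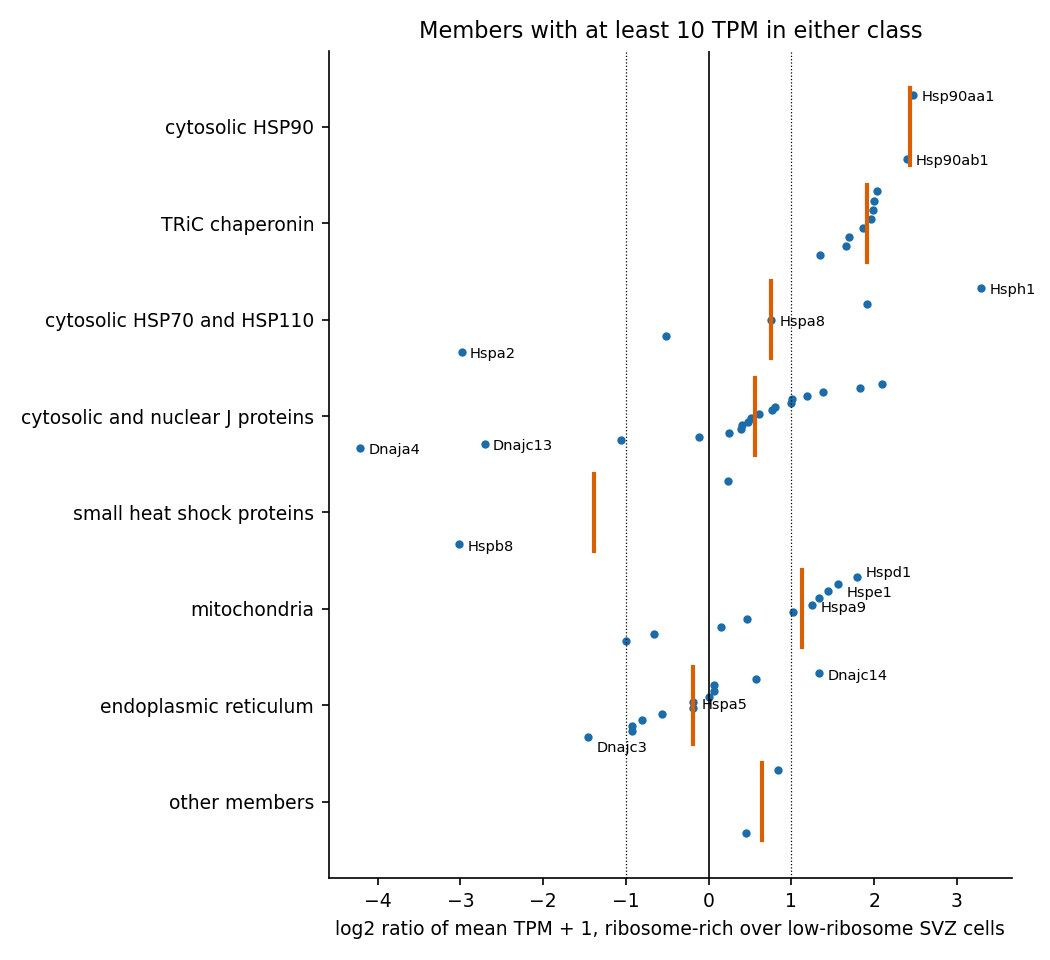
Log2 ratio of mean TPM + 1 between ribosome-rich and low-ribosome SVZ cells for the 59 members with at least 10 TPM in either class, by family or compartment. Each point is a gene, orange bars are medians, and dotted lines mark 2-fold. Both HSP90 genes and all 8 TRiC genes lie past 2-fold higher, against 28.1% of all genes, while genes of the endoplasmic reticulum have a median of -0.19.

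Promoter windows, 250 bases before to 50 after a start annotated by RefSeq on GRCm38.p6, were found for 68 of the 83 members. The windows below are shown because they hold, in capitals, 2 inverted units of the heat shock element (GAANNTTC) or the letters of the endoplasmic reticulum stress element (ERSE). Through these elements the families are classically induced. GAANNTTC is a part of the heat shock element only. They are written 5′ to 3′ on the strand of the gene, and for Hsph1 the first of 2 listed windows is shown. Hspa1a and Hsph1 are inducible cytosolic genes, Hspd1 is mitochondrial, Cct2 is the only TRiC gene with a match, and Hspa5 and Hsp90b1 belong to the endoplasmic reticulum.
Hspa1a, chr17:34972107-34972406, minus strand: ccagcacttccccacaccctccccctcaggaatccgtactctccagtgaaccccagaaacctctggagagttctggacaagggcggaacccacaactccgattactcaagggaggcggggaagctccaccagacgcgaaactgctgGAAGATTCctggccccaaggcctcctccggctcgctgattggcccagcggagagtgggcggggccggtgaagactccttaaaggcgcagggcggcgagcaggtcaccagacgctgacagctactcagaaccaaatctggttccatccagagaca
Hsph1, chr5:149636287-149636586, minus strand: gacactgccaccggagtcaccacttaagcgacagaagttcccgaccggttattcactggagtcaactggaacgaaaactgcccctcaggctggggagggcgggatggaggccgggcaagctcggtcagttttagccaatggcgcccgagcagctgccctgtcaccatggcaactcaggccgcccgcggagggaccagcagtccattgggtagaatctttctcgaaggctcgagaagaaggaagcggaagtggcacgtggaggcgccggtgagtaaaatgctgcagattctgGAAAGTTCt
Hspd1, chr1:55087883-55088182, minus strand: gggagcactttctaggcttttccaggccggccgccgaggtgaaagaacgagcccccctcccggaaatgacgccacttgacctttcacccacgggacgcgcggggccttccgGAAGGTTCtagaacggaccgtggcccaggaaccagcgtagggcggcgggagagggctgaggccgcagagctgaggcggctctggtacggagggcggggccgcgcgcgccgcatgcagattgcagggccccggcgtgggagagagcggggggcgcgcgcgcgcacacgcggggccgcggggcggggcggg
Cct2, chr10:117063326-117063625, minus strand: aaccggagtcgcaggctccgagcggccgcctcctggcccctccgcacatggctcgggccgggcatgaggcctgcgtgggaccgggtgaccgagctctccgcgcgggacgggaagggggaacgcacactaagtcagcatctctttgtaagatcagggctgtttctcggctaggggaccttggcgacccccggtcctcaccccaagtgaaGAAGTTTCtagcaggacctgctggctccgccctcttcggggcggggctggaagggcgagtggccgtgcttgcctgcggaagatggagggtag
Hspa5, chr2:34771840-34772139, plus strand: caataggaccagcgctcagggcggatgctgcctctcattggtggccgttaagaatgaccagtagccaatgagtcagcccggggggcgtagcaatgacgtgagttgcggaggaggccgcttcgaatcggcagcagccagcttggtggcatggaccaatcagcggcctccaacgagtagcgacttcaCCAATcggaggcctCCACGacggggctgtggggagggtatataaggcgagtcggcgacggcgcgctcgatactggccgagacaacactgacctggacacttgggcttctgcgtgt
Hsp90b1, chr10:86705395-86705694, minus strand: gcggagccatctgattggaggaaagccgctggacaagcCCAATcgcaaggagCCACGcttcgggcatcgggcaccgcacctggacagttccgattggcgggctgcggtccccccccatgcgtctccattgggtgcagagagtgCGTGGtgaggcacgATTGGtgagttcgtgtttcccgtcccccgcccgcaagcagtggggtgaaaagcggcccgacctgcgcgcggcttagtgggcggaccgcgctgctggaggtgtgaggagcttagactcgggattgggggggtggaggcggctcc

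GAANNTTC, which reads the same on both strands, occurred in 16 of 68 members (23.5%) and in 2442 of all 27025 genes with a window (9.04%). It was found in 5 of 6 stress-inducible cytosolic genes with a window (Hspa1a, Hspa1b, Hspb1, Hsph1 and Dnaja1), in 1 of 8 TRiC genes, in 2 of 7 mitochondrial genes and in 0 of 12 genes of the endoplasmic reticulum. ERSE, searched on both strands as CCAAT and CCACG 9 bases apart, occurred in Hspa5, Hsp90b1 and Dnajc3, which are 3 of 12 genes of the endoplasmic reticulum (25%), and in 37 of all 27025 genes (0.137%). No member held both motifs. Hspd1 and Hspe1 lie on opposite strands of chromosome 1 with overlapping windows, so the match shown for Hspd1 lies in the window of Hspe1 too. A match of letters describes the sequence and shows no binding.

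The HSP90 genes were among the 3 most abundant members in ribosome-rich cells. Hsp90aa1, the inducible form of cytosolic HSP90, ranged between 511 and 3609.6 TPM in ribosome-rich cells (median 1715) and between 0 and 1565 TPM in low-ribosome cells (median 305). Hsp90ab1, the constitutive form, ranged between 1052 and 2094 TPM in ribosome-rich cells (median 1339) and between 0 and 1096 TPM in low-ribosome cells (median 230.4). The classes overlapped for both genes, for Hsp90ab1 only over a narrow stretch, and the log2 ratios were 2.47 for Hsp90aa1 and 2.4 for Hsp90ab1. All 15 ribosome-rich cells had both genes at 1 TPM (interval 78.2% to 100%), against 85.8% of low-ribosome cells for Hsp90aa1 (77.7% to 91.9%) and 73.6% for Hsp90ab1 (64.1% to 81.7%). Intermediate cells lay between, with means of 876 TPM (SD 499) for Hsp90aa1 and 811 TPM (SD 347) for Hsp90ab1.

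Within the ribosome-rich class the levels of the HSP90 forms also varied. Hsp90aa1 averaged 2386 TPM (SD 1051) in 11 mitotic cells and 976 TPM (SD 528) in 4 non-mitotic cells. Hsp90ab1 averaged 1413 TPM (SD 326) in the mitotic and 1589.8 TPM (SD 357) in the non-mitotic cells. The inducible form thus had 1.69 times the mean of the constitutive one in mitotic cells and 0.614 times in non-mitotic cells, and lay above it in 8 of 11 mitotic and 1 of 4 non-mitotic cells. This difference was seen in ogp cells and not in ogp2 cells. In ogp, Hsp90aa1 ranged between 1626 and 3609.6 TPM in mitotic cells and had 556, 1578 and 511 TPM in the 3 non-mitotic cells. In ogp2, Hsp90aa1 had 934 and 751 TPM in the mitotic cells and 1261 TPM in the non-mitotic cell, and lay below Hsp90ab1 in each of the 3 cells.

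HSP70 genes followed another order. Hspa8, the constitutive cytosolic HSP70, was the most abundant member in low-ribosome cells. It ranged between 385 and 2907 TPM in ribosome-rich cells (mean 1832, SD 679.7) and between 0 and 3486 TPM in low-ribosome cells (mean 1086, SD 717). The ribosome-rich range lies within the low-ribosome one, and the log2 ratio of 0.75 stayed below 2-fold. Cells with Hspa8 at 1 TPM made up 100% of ribosome-rich and 96.2% of low-ribosome cells (90.6% to 99%).

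Of the HSP110 genes, whose products reset HSP70 for another round, Hsph1 and Hspa4 stood further apart, while Hspa4l was not higher in ribosome-rich cells. Hsph1, whose promoter window is shown above, averaged 59.3 TPM (SD 57.2) in ribosome-rich cells, 44.6 TPM (SD 59.6) in intermediate cells and 5.17 TPM (SD 21) in low-ribosome cells. Its log2 ratio of 3.29 was the highest of the members at 10 TPM, with 1 TPM reached in 73.3% of ribosome-rich cells (44.9% to 92.2%) and 11.3% of low-ribosome cells (5.99% to 18.9%). The ribosome-rich level came mainly from 12 ogp cells (71.7 TPM, SD 57.3), and the 3 ogp2 cells averaged 9.75 TPM (SD 16.3). Hspa4 averaged 65.9 TPM (SD 54.2) in ribosome-rich and 16.7 TPM (SD 53.5) in low-ribosome cells.

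Hspa2, an HSP70 best known from the testis, was lower in ribosome-rich cells. It averaged 17.4 TPM (SD 58.9) in ribosome-rich, 46.7 TPM (SD 64.8) in intermediate, 215 TPM (SD 179) in striatum, 29.2 TPM (SD 58.4) in cortex and 145 TPM (SD 195) in low-ribosome cells. Cells at 1 TPM or more made up 20% of ribosome-rich (4.33% to 48.1%), 84.6% of striatum (54.6% to 98.1%) and 64.2% of low-ribosome cells (54.3% to 73.2%). The ribosome-rich mean rested on 3 cells, above all on 1 ogp2 cell at 229 TPM.

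Of 7 small heat shock proteins 2 reached 10 TPM in either class. Of these, 0 were at least 2-fold higher and 1 at least 2-fold lower in ribosome-rich cells, against 28.1% and 25.4% of all genes. The other, Hspb6, had a log2 ratio above 0. The lower one, Hspb8, which works with Bag3 in the removal of damaged proteins, averaged 3.32 TPM (SD 12.5) in ribosome-rich and 34 TPM (SD 93.4) in low-ribosome cells, where 17.9% of cells held it (11.2% to 26.6%). In striatum its mean was 98.2 TPM (SD 121), with 46.2% of cells at 1 TPM (19.2% to 74.9%).

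All 8 subunits of TRiC at 10 TPM were at least 2-fold higher in ribosome-rich than in low-ribosome cells, against 28.1% of all genes. Their log2 ratios lay between 1.35 for Cct8 and 2.04 for Cct5, with a median of 1.91. The subunits sit in equal numbers in each ring, and whether their transcripts follow this was not tested. Over all ribosome-rich cells Cct3 had the highest mean (564 TPM, SD 184) and Cct2 the lowest (332 TPM, SD 152), a ratio of 1.70. The spread was wider in parts of this class. In its 3 ogp2 cells the means lay between 171 TPM for Cct6a and 649 TPM for Tcp1. In its 4 non-mitotic cells they lay between 193 TPM for Cct6a and 473 TPM for Cct5. In low-ribosome cells Cct3 was again highest (177 TPM, SD 263) and Cct2 lowest (83.2 TPM, SD 159), a ratio of 2.13. The summed level of TRiC ranged between 2063 and 4891 TPM in ribosome-rich cells (median 3506), 1269 and 4114 TPM in intermediate cells (median 2199) and 0 and 3013 TPM in low-ribosome cells (median 916). Cct6b, a testis form of Cct6a, averaged 0.0347 TPM in ribosome-rich and 2.68 TPM in low-ribosome cells.

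Transcripts of the whole ring were found together in every ribosome-rich cell and in few low-ribosome cells. All 8 subunits reached 1 TPM in 15 of 15 ribosome-rich cells (78.2% to 100%), in 4 of 12 intermediate cells (9.92% to 65.1%), in 0 of 13 striatum cells (0% to 24.7%), in 0 of 4 cortex cells (0% to 60.2%) and in 1 low-ribosome cell, which is 0.943% of that class (0.0239% to 5.14%). The 4 intermediate cells were all of ogp, where they made up 4 of 6 (22.3% to 95.7%), against 0 of 6 in ogp2 (0% to 45.9%). The median low-ribosome cell had 3.5 of the 8. Detection in general was also fuller in ribosome-rich cells. Genes averaging 10 TPM or more were found in a median of 66.7% of ribosome-rich cells and 26.4% of low-ribosome cells, against 100% and 45.3% for the TRiC subunits, and the part of detection in these counts was not tested.

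**Figure D2:**
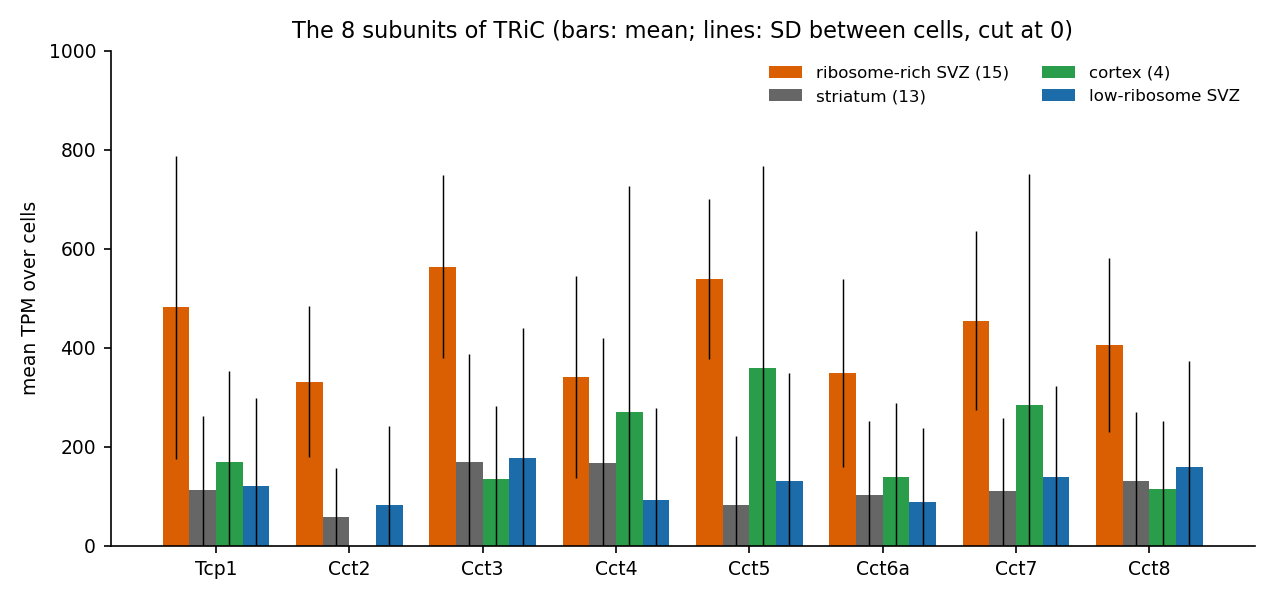
Mean TPM of the 8 TRiC subunits in ribosome-rich SVZ cells, striatum astrocytes, cortex astrocytes and low-ribosome SVZ cells. Bars are means and lines SD between cells, cut at 0. Ribosome-rich means run from 332 TPM (Cct2) to 564 TPM (Cct3) and low-ribosome means from 83.2 TPM (Cct2) to 177 TPM (Cct3), and Cct2 is listed at 0 in the 4 cortex cells.

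J proteins, which choose the clients of HSP70, were mixed. Of 18 cytosolic or nuclear J proteins at 10 TPM, 5 were at least 2-fold higher and 3 at least 2-fold lower in ribosome-rich cells, against 28.1% and 25.4% of all genes, so that the share higher was near that of all genes. Their median log2 ratio was 0.56. Dnaja1, a partner of Hspa8, averaged 456 TPM (SD 234) in ribosome-rich and 128 TPM (SD 195) in low-ribosome cells. Dnajc9, which handles histones, averaged 233 TPM (SD 159) in ribosome-rich and 53.7 TPM (SD 125) in low-ribosome cells. Dnajc2, which sits at the ribosome exit, averaged 69.9 TPM (SD 47.1) in ribosome-rich and 26.1 TPM (SD 76.9) in low-ribosome cells. The lower ones were Dnaja4 (0.281 TPM in ribosome-rich and 22.8 TPM in low-ribosome cells), the endosomal Dnajc13 (1.76 and 17.1 TPM in these classes) and Dnajb2 (17.1 and 36.9 TPM). Each was found in a minority of low-ribosome cells, 17% for Dnaja4 and 22.6% for Dnajb2, and this minority set the means. Genes averaging 10 TPM or more were found in a median of 26.4% of low-ribosome cells.

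Mitochondrial chaperones were higher in ribosome-rich cells as a set. They summed to 2067 TPM in ribosome-rich cells (SD 592, range 1034 to 3055) and 826 TPM in low-ribosome cells (SD 531, highest 2669), with wide overlap. Of 10 genes 6 were at least 2-fold higher and 0 at least 2-fold lower, against 28.1% and 25.4% of all genes, and the median log2 ratio was 1.13. Hspd1, the ring subunit HSP60 of the mitochondrial chaperonin, ranged between 107.4 and 802 TPM in ribosome-rich cells (median 394) and between 0 and 893 TPM in low-ribosome cells (median 0.460). Hspe1, the lid of that ring, ranged between 233 and 1452 TPM in ribosome-rich cells (median 629.5) and between 0 and 1058 TPM in low-ribosome cells (median 169). The log2 ratios were 1.80 for Hspd1 and 1.56 for Hspe1. These genes overlap at their starts, so reads there could be assigned to either. Hspa9, the mitochondrial HSP70 that draws proteins in through the inner membrane, averaged 294 TPM (SD 216) in ribosome-rich and 123 TPM (SD 168) in low-ribosome cells. Dnaja3, its J protein in the matrix, differed less, with 61.4 TPM (SD 42.6) in ribosome-rich and 44.4 TPM (SD 94.8) in low-ribosome cells.

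Chaperones of the endoplasmic reticulum stood at similar levels in both classes. They summed to 916 TPM in ribosome-rich cells (SD 242, range 463 to 1299), 929 TPM in intermediate cells (SD 413) and 1086 TPM in low-ribosome cells (SD 507, range 17.6 to 2509), and the ribosome-rich range lies within the low-ribosome one. Of 12 genes at 10 TPM, 1 was at least 2-fold higher (Dnajc14) and 1 at least 2-fold lower (Dnajc3), against 28.1% and 25.4% of all genes. The median log2 ratio was -0.19. On means of log values over cells, which weigh detection more, this median was 1.51 and that of all genes 1.57, so the set again stood near all genes.

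Hspa5, the HSP70 of this compartment known as BiP, averaged 249 TPM (SD 141) in ribosome-rich and 283 TPM (SD 328) in low-ribosome cells, a log2 ratio of -0.19. Hsp90b1, its HSP90, averaged 299 TPM (SD 195) in ribosome-rich and 285 TPM (SD 281) in low-ribosome cells, a log2 ratio of 0.07. Both are among the genes whose windows hold ERSE. Dnajb9, a J protein that holds the stress sensor Ire1 in check, averaged 108 TPM (SD 93.1) in ribosome-rich and 205 TPM (SD 233) in low-ribosome cells. Dnajc3, which restrains the stress kinase Perk, averaged 20.6 TPM (SD 14.8) in ribosome-rich and 58.5 TPM (SD 82.9) in low-ribosome cells, although 80% of ribosome-rich cells held it (51.9% to 95.7%) and 51.9% of low-ribosome cells (42% to 61.7%). On means of log values its log2 ratio turned to 0.44. Dnajb14 was found in nearly all cells at a low level, in 93.3% of ribosome-rich cells at a mean of 5.86 TPM and in 99.1% of low-ribosome cells at a mean of 11 TPM.

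The make-up of chaperone mRNA also differed between the classes. HSP90 made up 24.7% of chaperone TPM per ribosome-rich cell (SD 5.78), 16.6% per intermediate and 10.9% per low-ribosome cell (SD 6.59). TRiC made up 24.6% per ribosome-rich (SD 3.23), 22.6% per intermediate and 16% per low-ribosome cell (SD 8.97). The endoplasmic reticulum set made up 6.58% per ribosome-rich (highest 9.72), 9.28% per intermediate and 18.9% per low-ribosome cell (SD 9.97, range 0.627 to 69.9). Mitochondrial chaperones had similar shares, 15.1% in ribosome-rich and 13.9% in low-ribosome cells.

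**Figure D3:**
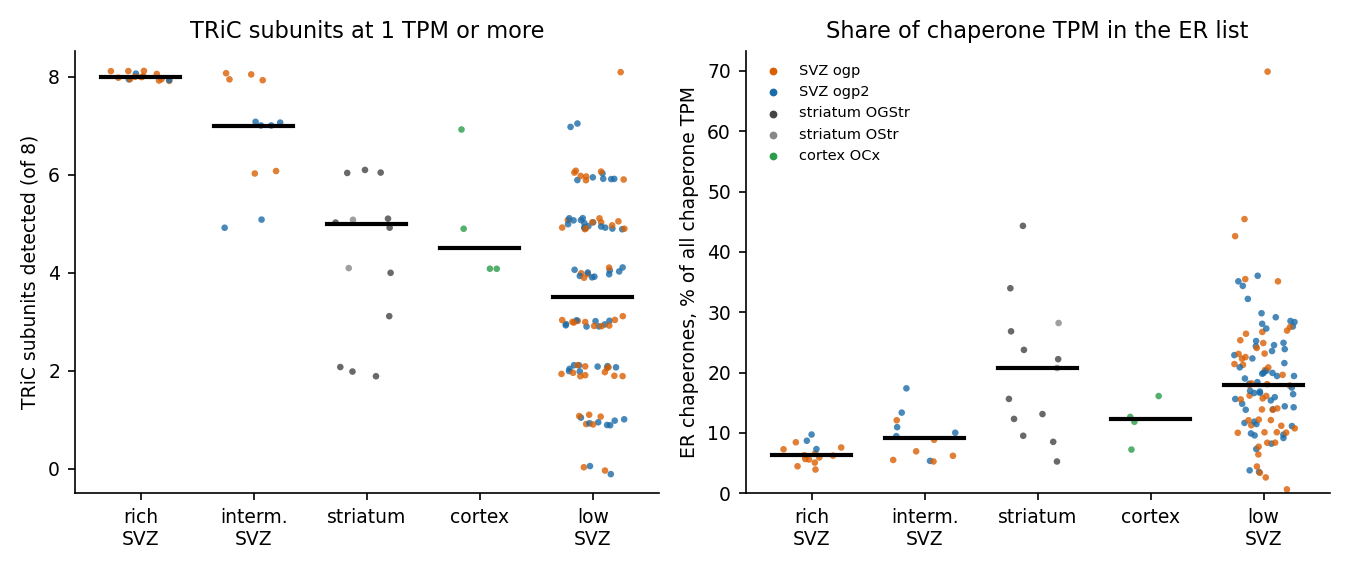
Left, number of the 8 TRiC subunits at 1 TPM or more per cell; right, percent of the chaperone TPM of a cell in genes of the endoplasmic reticulum. Points are cells coloured by series and black lines are medians. Ribosome-rich cells all have 8 subunits and endoplasmic reticulum shares of 9.72% or less, while low-ribosome cells range between 0.627% and 69.9%.

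The pattern was present in each SVZ series alone. Among ogp cells the median log2 ratio of ribosome-rich over low-ribosome cells was 1.98 for TRiC, 2.34 for HSP90, 1.06 for mitochondrial and -0.43 for endoplasmic reticulum chaperones. Among ogp2 cells, with 3 ribosome-rich cells, it was 1.66 for TRiC, 2.21 for HSP90, 1.27 for mitochondrial and -0.30 for endoplasmic reticulum chaperones. Without the 5 columns of low sum it was 1.85 for TRiC and -0.21 for the endoplasmic reticulum. With the 4 non-mitotic ribosome-rich cells alone it was 1.32 for TRiC, 1.13 for mitochondria and -0.34 for the endoplasmic reticulum.

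Across the 133 SVZ cells the Spearman correlation with the ribosomal share was 0.61 for HSP90, 0.53 for mitochondrial, 0.46 for TRiC and -0.21 for endoplasmic reticulum chaperones, each as a percent of TPM outside ribosomal genes. The number of genes detected correlated with the ribosomal share at 0.64, and all these values share the same libraries. Within the low-ribosome class the values were 0.30 for HSP90, 0.22 for mitochondria, 0.02 for TRiC and -0.23 for the endoplasmic reticulum. These were nearer 0 than over all SVZ cells for HSP90, mitochondria and TRiC, and not for the endoplasmic reticulum.

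**Figure D4:**
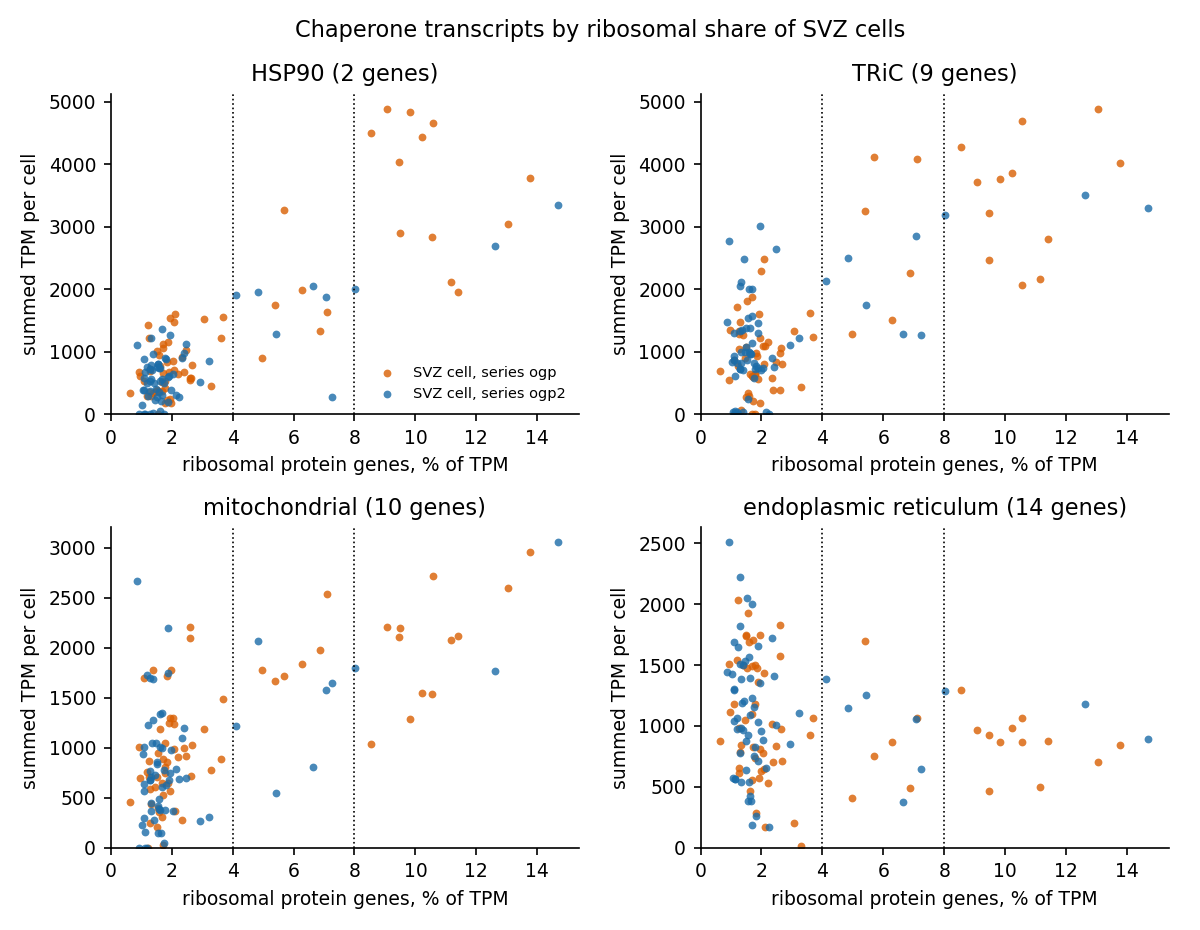
Summed TPM per SVZ cell of HSP90, TRiC, mitochondrial and endoplasmic reticulum chaperones against the percent of TPM in ribosomal protein genes. Each point is a cell, coloured by series, and dotted lines mark 4% and 8%. HSP90 sums are 1961 TPM or more in all ribosome-rich cells and 1602 TPM or less in low-ribosome cells, while endoplasmic reticulum sums overlap fully.

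Intermediate cells had more HSP90 and TRiC transcripts than the same low-ribosome cells, while mitochondrial chaperones differed less. Of 56 members at 10 TPM, 20 were at least 2-fold higher, against 27% of all genes, and 5 at least 2-fold lower, against 20.3% of all genes. The median log2 ratio was 1.19 for TRiC, 0.71 for mitochondrial and -0.12 for endoplasmic reticulum chaperones, and 0.24 over all genes. Under median-ratio scaling 11 members were higher and 6 lower, beside an all-gene median of 0.01. All 8 TRiC genes and both HSP90 genes were at least 2-fold higher. In ogp alone 7 TRiC genes and 1 HSP90 gene were so, against 30.7% of all genes. In ogp2 alone 4 TRiC genes and both HSP90 genes were so, against 28.9% of all genes. Of 10 mitochondrial genes 3 were at least 2-fold higher, near the share of all genes, and 1 lower, and the median was 0.88 in ogp alone and 0.35 in ogp2 alone. Hspd1 averaged 365 TPM (SD 283) in intermediate and 112 TPM (SD 171) in low-ribosome cells. Dnajc12 averaged 46.1 TPM (SD 79.1) in intermediate and 10.3 TPM (SD 38.9) in low-ribosome cells. Lower in intermediate cells were Hspb8 (0.0117 TPM, against 34 TPM in low-ribosome cells), Dnaja4 (0.381 TPM, against 22.8 TPM) and Dnajb12 (1.84 TPM, against 26.9 TPM).

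The partners of chaperones were followed in 3 lists. Of 23 partners of cytosolic chaperones at 10 TPM, 12 were at least 2-fold higher and 1 at least 2-fold lower in ribosome-rich than in low-ribosome cells, against 28.1% and 25.4% of all genes. These partners had a median log2 ratio of 1.28, against 0.16 over all genes. Fkbp4, which joins HSP90 on steroid receptors, averaged 376 TPM (SD 133) in ribosome-rich and 106.9 TPM (SD 170.4) in low-ribosome cells. Bag1, which frees the clients of HSP70, averaged 118 TPM (SD 88) in ribosome-rich and 29.2 TPM (SD 81.4) in low-ribosome cells. The prefoldin subunits, which hand clients to TRiC, behaved likewise, with Pfdn2 at 78.5 TPM in ribosome-rich and 20.3 TPM in low-ribosome cells and Pfdn4 at 47.8 and 13 TPM in these classes.

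Partners in the endoplasmic reticulum had a median log2 ratio of -0.08 over 15 genes. There the lectin chaperone Calr averaged 91 TPM (SD 86.5) in ribosome-rich and 219 TPM (SD 215) in low-ribosome cells, and Xbp1, a factor of the unfolded protein response, 38.5 TPM (SD 56.3) in ribosome-rich and 88.9 TPM (SD 163) in low-ribosome cells. The lower levels of Calr and Xbp1 were those of ogp (log2 ratios -1.83 and -1.86). In ogp2, with 3 ribosome-rich cells, the log2 ratios were -0.16 for Calr and 0.09 for Xbp1. In that series 4 of 16 partners were at least 2-fold higher and 0 lower, against 32.2% and 32.1% of all genes. Over both series, 1 of the 15 partners was at least 2-fold higher and 2 lower, against 28.1% and 25.4% of all genes. The higher one was Atf4, a factor of the integrated stress response, with 303 TPM (SD 198) in ribosome-rich and 85.8 TPM (SD 159) in low-ribosome cells. Partners in mitochondria had a median of 0.32 over 8 genes, with Atf5, a factor of the mitochondrial stress response, at 25 TPM (SD 28.8) in ribosome-rich and 2.41 TPM (SD 11.2) in low-ribosome cells.

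Stress-inducible cytosolic chaperones were split. Of 8 such genes 5 had 10 TPM in either class, and 3 of these (Hsph1, Hsp90aa1 and Dnaja1) were at least 2-fold higher and 0 at least 2-fold lower in ribosome-rich than in low-ribosome cells, against 28.1% and 25.4% of all genes. The median log2 ratio over the 5 was 1.83, 2.13 in ogp alone and 0.96 over 4 genes in ogp2 alone. The other 3, among them the HSP70 genes that respond most to heat, were near 0. Hspa1b was listed at 0 in all 150 cells, and Hspa1a reached 1 TPM in 4 of 150, with 206 TPM at most. These HSP70 genes are near-identical, so reads could have been split between them. Hspb1, the small heat shock protein HSP27, reached 1 TPM in 1 of 150 cells. Dnajb1, a J protein induced with them, was found in 53.3% of ribosome-rich (26.6% to 78.7%), 50% of intermediate (21.1% to 78.9%), 7.69% of striatum (0.195% to 36%) and 13.2% of low-ribosome cells (7.41% to 21.2%), and was listed at 0 in cortex. Its mean was 36.2 TPM (SD 39.4) in ribosome-rich and 27.2 TPM (SD 86.9) in low-ribosome cells. Genes averaging 10 TPM or more were found in a median of 66.7% of ribosome-rich, 41.7% of intermediate, 30.8% of striatum and 26.4% of low-ribosome cells. Immediate early genes, given above, also differed between the SVZ classes. Within the low-ribosome class their median log2 ratio of ogp2 over ogp was -3.32 over 9 genes at 10 TPM, against -0.047 over all genes. In striatum 5 of 12 immediate early genes at 10 TPM were at least 2-fold higher than in low-ribosome cells and 1 lower, against 13.8% and 24.9% of all genes. The part of immediate early genes in Dnajb1 levels was not tested in any of these groups.

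Striatum astrocytes had chaperone levels near those of low-ribosome SVZ cells. Of 59 members at 10 TPM, 8 were at least 2-fold higher, against 13.8% of all genes, and 7 at least 2-fold lower, against 24.9% of all genes. The median log2 ratio was -0.09 over the members and -0.18 over all genes. The mean of Dnajb4 was 109.7 TPM (SD 115) for striatum, against 41.3 TPM (SD 89.8) for low-ribosome cells, and that of Dnajb5 29.4 TPM (SD 72) for striatum, against 4.72 TPM (SD 27.8) for low-ribosome cells. Dnajc19, of the mitochondrial import motor, stood at 195 TPM (SD 224) for striatum, against 95.1 TPM (SD 168) for low-ribosome cells. Hspb8, given above, was higher in striatum too. Dnajb6, which keeps aggregating proteins soluble, was lower, at 59.3 TPM (SD 118) for striatum, against 129 TPM (SD 207) for low-ribosome cells, as was Hspb11, at 1.12 TPM (SD 1.36) for striatum, against 24.8 TPM (SD 78.7) for low-ribosome cells. Hspa8 ranged between 0 and 1419 TPM in striatum (median 629.6), within the low-ribosome range. Of 24 partners of cytosolic chaperones at 10 TPM, 4 were at least 2-fold higher in striatum, Bag2, Bag3 and Bag6 among them, and 1 lower. All genes had 13.8% higher and 24.9% lower, and the median log2 ratio of these partners was 0.28. The lower one was Hsf1, the main regulator of the heat shock response, at 14.3 TPM (SD 37) for striatum, against 61.8 TPM (SD 143) for low-ribosome cells. Sorting gate, tissue and age differ together between astrocytes and SVZ cells and cannot be told apart.

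Cortex astrocytes numbered only 4, and their values varied widely. Of 56 members at 10 TPM, 10 were at least 2-fold higher, against 22.2% of all genes, and 20 at least 2-fold lower, against 40.9% of all genes, than in low-ribosome SVZ cells. The median log2 ratio was -0.30 over the members and -0.34 over all genes. Under median-ratio scaling 3 members were higher and 21 lower, beside an all-gene median of -0.70. Hspa8 had 2174, 2802, 1407 and 1284 TPM in the cortex cells numbered 1, 5, 19 and 24, all above the median of 977 TPM of low-ribosome cells and within their range. Cct5 had 213, 943, 0 and 283 TPM in the same cells, and Dnaja1 had 0, 691, 70.2 and 398 TPM. For both genes 1 cell was listed at 0 while another was above 600 TPM. Cct4 rested mainly on cell 5 with 948 TPM, and Cct7 on cell 19 with 976 TPM, and without those cells the log2 ratios over low-ribosome cells turned to -1.02 for Cct4 and -1.39 for Cct7. Cct2 and the mitochondrial Dnajc15 were listed at 0 in all 4 cells, where low-ribosome cells averaged 83.2 TPM for Cct2 and 126 TPM for Dnajc15.

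Striatum and cortex astrocytes were compared directly. Of 56 members at 10 TPM, 19 were at least 2-fold higher in striatum, against 38.3% of all genes, and 10 at least 2-fold lower, against 28.9% of all genes. The median log2 ratio was 0.17 over the members and 0.10 over all genes. Under median-ratio scaling 21 members were higher and 5 lower, beside an all-gene median of 0.50. The mean of Hspa8 was 671 TPM (SD 435) for striatum, against 1917 TPM (SD 709.6) for cortex, and the highest striatum cell (1419 TPM) lay above 2 of the 4 cortex cells. The mean of Hspa9 was 83.8 TPM (SD 86.6) for striatum, against 289 TPM (SD 239.6) for cortex. That of Hspa2 was 215 TPM (SD 179) for striatum, against 29.2 TPM (SD 58.4) for cortex, where 1 of 4 cells held it. For Hspa9 and Hspa2 the ranges overlapped. The comparisons with low-ribosome cells share those cells, and both comparisons with cortex share its 4 cells.

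The order of levels differed between the groups. In ribosome-rich cells the highest means were those of Hsp90aa1 (2010.4 TPM, SD 1125), Hspa8 (1832 TPM, SD 679.7) and Hsp90ab1 (1460.1 TPM, SD 332), followed by Hspe1 (682 TPM, SD 357). Hsp90aa1, Hspa8 and Hsp90ab1 had overlapping ranges over cells, and their order was not tested. In low-ribosome cells Hspa8 (1086 TPM, SD 717) came first, followed by Hsp90aa1 (362 TPM, SD 313), Hsp90b1 (285 TPM, SD 281), Hspa5 (283 TPM, SD 328) and Hsp90ab1 (275 TPM, SD 281). The order of these last 4 was not tested. In striatum Hspa8 (671 TPM, SD 435) was followed by Hspa5 (308 TPM, SD 279), Hsp90aa1 (229 TPM, SD 228) and Dnajb9 (219 TPM, SD 190).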

How the data were processed

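Smart-seq2 libraries of 150 single cells were analysed, and 18 libraries of sorted populations were not analysed here. The deposited values are TPM per gene, made by the authors with STAR 2.4.0g1 and RSEM 1.2.18 on mm10, per the submitters' processing notes, with a gene annotation not given in the sources used here. Of 43309 gene identifiers 42425 matched a symbol in GENCODE vM21 (GRCm38), giving 42405 symbols. Each cell was rescaled to 1000000 TPM. TPM keeps no read depth, and reads shared by near-identical genes may be split. Means of TPM + 1 were compared as log2 ratios for genes with a mean of at least 10 TPM in either group, and 2-fold is the size named, with no test, because each group is 1 sample. Up to 6 members and 4 partners per direction past 2-fold, with 20 TPM in either group, could be named beside the genes of each role. The members and lists were chosen with earlier results of these data known. The ratio was tested on simulated data. Python 3.11.15, numpy 2.4.6, pandas 2.3.3, scipy 1.17.1 and matplotlib 3.10.9 were used. Other pseudocounts, filters, scalings and class limits were tried. SVZ classes share title numbers with astrocytes, which pair nothing.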

Additional observations from a re-analysis of the deposited data

Results flagged for a closer look

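Among 20 combinations of a cell group and a chaperone list, each of 4 to 10 cells, 2 had a cell far from the others, and chance gives about 1 in 20. Among the 4 non-mitotic ribosome-rich SVZ cells, cell 19 of ogp had an endoplasmic reticulum chaperone sum of 503 TPM. Among the 6 intermediate ogp cells, cell 32 had a mitochondrial chaperone sum of 2537 TPM.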

How the results depend on the processing

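Most results moved little: 205 summary values stayed close to the value reported and 32 moved, and of the values of single genes 1552 stayed, 69 came to pass and 67 no longer passed 2-fold, 8 moved and 5 turned direction. For ribosome-rich against low-ribosome cells, means of log values gave medians of 3.61 for cytosolic, 5.05 for TRiC, 1.51 for endoplasmic reticulum and 3.70 for mitochondrial chaperones with 45 members higher and 1 lower, beside an all-gene median of 1.57, and turned Dnajc3 to 0.44. In ogp alone 10 members were lower and in ogp2 alone 10, against 28.7% and 32.1% of all genes. Hspb1 stood at 0 in ogp2 alone, and TRiC stood at 1.32 with non-mitotic cells alone. For intermediate against low-ribosome cells, no filter gave 0.41 for cytosolic chaperones and 10 members lower. Means of log values gave 2.24 for cytosolic, 3.87 for TRiC, 0.83 for endoplasmic reticulum and 1.58 for mitochondrial chaperones and 37 members higher, beside an all-gene median of 0.74. Median-ratio scaling left 11 higher, with an all-gene median of 0.01. There were 8 lower in ogp and 11 in ogp2, against 27.6% and 27.8% of all genes, and 8 with class limits of 3% and 6%. For striatum against low-ribosome cells, a pseudocount of 10 left 4 higher and 4 lower, no filter gave 14 lower, means of log values 14 higher and 2 lower, and all SVZ cells as the comparison 5 higher and 13 lower. For cortex against low-ribosome cells, no filter gave 32 lower, means of log values 9 lower, median-ratio scaling 3 higher with an all-gene median of -0.70, and all SVZ cells 4 higher. For striatum against cortex, median-ratio scaling left 5 lower, with an all-gene median of 0.50. The cause of these shifts was not tested, and for most of these settings the share of all genes past 2-fold was not counted. With any 1 cortex cell left out, log2 ratios over low-ribosome cells lay between -1.02 and 1.95 for Cct4 and between -1.39 and 1.43 for Cct7, and between -1.75 and 1.07 for Cct7 in striatum against cortex. There were then 7 to 14 members higher and 23 to 26 lower than in low-ribosome cells, beside all-gene medians between -0.74 and -0.63. No paired analysis was possible because each group is 1 sample and the shared title numbers name cells only. With depth unknown, a gene listed at 0 cannot be told from one below detection.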
